A study of Mus musculus with 6 samples.

Results

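Lyve1 and 9 genes of endothelial scavenger receptors (Stab1, Stab2, Mrc1, Scarb1, Scarf1, Cd36, Olr1, Cd68 and Msr1) were followed in cultured aortic endothelial cells of mice infused with saline or with angiotensin II (AngII). The 10 genes were taken by symbol from a table of 17067 genes and all 10 were listed there. They were chosen by name with the AngII against saline values of these samples already known, so their differences between the groups are described here without a test. Of the 10, 6 passed the filter on low counts and 4 (Mrc1, Cd36, Olr1 and Msr1) did not, with at most 8 counts in any sample.

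Both groups were wild-type C57BL/6 mice of 8 weeks with an osmotic pump under the skin for 14 days, which held 0.9% saline in sham-operated mice or released AngII at 1000 ng per kg per minute. AngII is the hormone that constricts vessels and raises blood pressure. After the infusion the aorta was freed of fat and connective tissue, laid in 2 mm pieces on Matrigel and kept in medium with 20% fetal calf serum, heparin and growth factor, and cells began to leave the pieces after 5 to 7 days. The RNA therefore came from cells that had grown out in culture without the pump, and each group had 3 samples. The labels do not say whether the samples of a group came from separate animals. Totals were 21154724 to 25141992 counts per sample, and samples of a group differed from each other by more than counting noise (chi-square per degree of freedom 2.38 to 5.86).

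Scavenger receptors are surface proteins that bind modified lipoproteins, glycans, dying cells and other waste and carry them into the cell, mostly for breakdown in lysosomes. The group is defined by function rather than by descent and runs from link-domain receptors of hyaluronan (Lyve1) through the very large stabilins to lectins and lipid receptors. Lyve1 is best known as a marker of lymphatic endothelium and of tissue macrophages, the stabilins and the mannose receptor Mrc1 as the clearance receptors of liver sinusoidal endothelium, and Cd68 and Msr1 as markers of macrophages.

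Lyve1 and Stab1 were higher and Scarb1 was slightly lower in the AngII samples, while the samples of the groups overlapped for Stab2, Scarf1 and Cd68. Lyve1 had the largest fold change of the 6 tested members, with a mean of 96.8 ± 1.39 CPM (counts scaled to library size with edgeR's TMM factors; SD, n = 3) after saline and 187 ± 9.72 CPM after AngII, a 1.94-fold higher level. Stab1 was 1.31-fold higher and Scarb1 1.13-fold lower. The receptors of oxidised lipoproteins and of macrophages, Olr1, Cd36 and Msr1, together with Mrc1, were at or near 0 in both groups. In edgeR's fit across 12277 genes, 2 of the 6 members that passed the filter were called higher and 1 lower, where 29.0% of all tested genes were called higher and 28.6% lower at an adjusted p below 0.05. All 3 AngII samples lay above all 3 saline samples for Lyve1 and Stab1 and below them for Scarb1, and among all tested genes the same held upward for 31.3% and downward for 31.4%. These shares are background to a choice made on the same contrast and nothing is read from them.

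**Figure D1:**
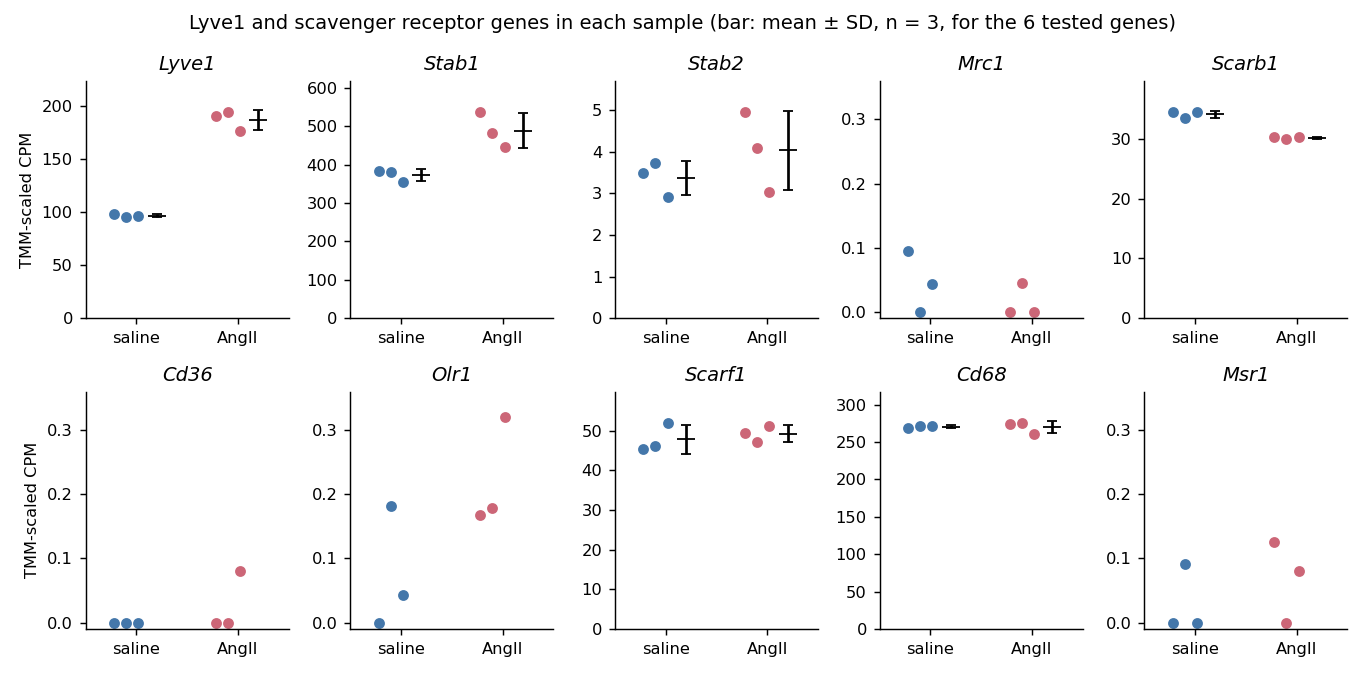
TMM-scaled CPM (vertical axis) of the 10 genes in the 3 saline samples (blue) and the 3 AngII samples (red). Mean ± SD stands beside the points for the 6 tested genes, whose panels start at 0, each with its own scale. The panels of the 4 genes below the filter share a scale that starts just below 0. Lyve1 sits between 95.4 and 98.2 CPM after saline and between 176 and 195 CPM after AngII, and the 4 genes below the filter stay at or below 0.320 CPM.

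Lyve1 (ENSMUSG00000030787.4; chromosome 7, 110850607 to 110863239, minus strand, GRCm38) encodes a membrane receptor of hyaluronan, the long sugar chain of the extracellular matrix, and serves the entry of leukocytes into lymph vessels. It had 2086, 2103 and 2232 counts in saline replicates 1 to 3, and 4545, 4378 and 4405 counts in AngII replicates 1 to 3. On the CPM scale these were 98.2, 95.4 and 96.8 after saline and 191, 195 and 176 after AngII. The lowest AngII sample was far above the highest saline sample, and the saline samples lay closer together, with a coefficient of variation of 1.44% against 5.19%. The log2 fold change was 0.95, against a median of 0.0001 over all tested genes and a median absolute value of 0.19. In the order of log2 fold changes of the 12277 tested genes, Lyve1 stood at place 193 from the top.

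The stabilins are a pair of very large receptors that take up hyaluronan, modified lipoproteins and matrix fragments, and Stab1 is also found on alternatively activated macrophages and on several vascular beds. Stab1 (ENSMUSG00000042286.13; chromosome 14, 31139013 to 31168641, minus strand) had 383, 382 and 356 CPM after saline and 537, 483 and 447 CPM after AngII. Each AngII sample was above each saline sample, and the AngII samples were the more widely spread, at 489 ± 45.8 against 373 ± 15.4 CPM (SD, n = 3). The log2 fold change was 0.39, and 0.31 without AngII replicate 1, the sample with the highest level.

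Stab2 (ENSMUSG00000035459.18; chromosome 10, 86841198 to 87008025, minus strand), the main hyaluronan clearance receptor of liver and spleen sinusoids, was low. It had 74, 82 and 67 counts after saline and 118, 92 and 76 counts after AngII, or 3.48, 3.72 and 2.90 CPM against 4.96, 4.09 and 3.04 CPM. AngII replicates 1 and 2 were above every saline sample and AngII replicate 3 was within their range, so the groups overlapped. The log2 fold change was 0.26, and it ran from 0.07 without AngII replicate 1 to 0.43 without AngII replicate 3. Without AngII replicate 3 the count of members called higher was 3, Stab2 added, in place of 2, and nothing is read from that count either.

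AngII replicate 1 had the highest and AngII replicate 3 the lowest level of that group for both stabilins. The vascular endothelial marker Cdh5, which encodes VE-cadherin, lay in the same order, with 1450, 1394 and 1306 CPM in AngII replicates 1 to 3, and so did Pecam1, with 2012, 1919 and 1825 CPM. The part of this difference between libraries in the stabilin values was not tested. Lyve1 did not share that order, since its highest AngII value was in replicate 2.

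The sequences just before the start sites of the stabilin genes are shown because this pair of related receptors had levels far apart in the same cells. They are the 250 bases before the annotated start from RefSeq's GRCm38.p6 promoter table, at chr14:31168642-31168891 for Stab1 and chr10:87007943-87008192 for Stab2, both read on the minus strand, 5′ to 3′. Capitals mark AGGAAG, a core of the motif of ETS factors such as ERG of endothelial cells, or its reverse complement.
Stab1: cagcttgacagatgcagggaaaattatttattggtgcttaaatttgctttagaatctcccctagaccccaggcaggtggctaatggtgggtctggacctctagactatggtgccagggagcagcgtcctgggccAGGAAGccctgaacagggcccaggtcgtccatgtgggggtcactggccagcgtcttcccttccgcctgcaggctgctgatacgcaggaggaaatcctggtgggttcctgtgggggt
Stab2: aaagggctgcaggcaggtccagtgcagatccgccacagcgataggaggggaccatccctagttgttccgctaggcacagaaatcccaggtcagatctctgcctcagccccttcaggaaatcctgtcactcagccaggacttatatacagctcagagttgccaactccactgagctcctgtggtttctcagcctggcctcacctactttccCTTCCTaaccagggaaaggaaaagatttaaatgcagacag
AGGAAG began 116 bases before the start of Stab1, on the gene's own strand, and its reverse complement began 40 bases before the start of Stab2. These starts are RefSeq's, and the gene spans given here, which are GENCODE's, place some starts elsewhere. The windows of Stab2 and Mrc1 reach into those spans and that of Cd36 lies within its span. The marked bases of Stab2 lie inside its GENCODE span. GC content was 57.2% for Stab1 and 53.2% for Stab2, against a median of 52.4% over all 32851 windows of this length in the table. Such windows were found for 6 of the 10 genes (Stab1, Stab2, Mrc1, Cd36, Olr1 and Cd68). On either strand AGGAAG was found in 4 of these 6 (Stab1, Stab2, Mrc1 and Olr1) and in 29.5% of all windows. The AP-1 motif TGANTCA was in 2 of them (Cd68 and Olr1) and in 6.75% of all windows, GATA's AGATAA was in Olr1 and in 9.99%, and AACAAT of SOX factors was in Cd36 and in 9.42%. None of the 6 held CCGGAA, a further ETS core that shares GGAA with AGGAAG (12% of all windows), CACGTG of E-box factors (6.02%), TATAAA of the TATA box (12.4%) or CCCCGCCC of KLF and SP factors (16.1%), and no matches of different motifs overlapped in these windows.

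Mrc1 (ENSMUSG00000026712.3; chromosome 2, 14229392 to 14332057, plus strand), the mannose receptor CD206, takes up glycoproteins and collagen fragments in macrophages and sinusoidal endothelium. It had 2, 0 and 1 counts after saline and 0, 1 and 0 counts after AngII. A count of 0 allows a level of up to 0.120 to 0.141 CPM (3 counts) in these libraries, so both groups were at the limit of detection and no fold is given.

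Scarb1 (ENSMUSG00000037936.15; chromosome 5, 125277087 to 125341094, minus strand) encodes SR-BI, the receptor through which HDL delivers cholesterol, which in endothelium also carries LDL across the cell. It had 34.5, 33.4 and 34.5 CPM after saline and 30.2, 30.0 and 30.3 CPM after AngII. Every AngII sample was below every saline sample by a small margin, and replicates were close in both groups (34.1 ± 0.606 and 30.2 ± 0.184 CPM, SD, n = 3). The log2 fold change was -0.18. The AngII mean minus the saline mean was -3.95 CPM.

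Cd36 (ENSMUSG00000002944.15; chromosome 5, 17781690 to 17888801, minus strand), the other class B receptor, binds thrombospondin and takes up fatty acids and oxidised LDL, and is known mainly from capillary endothelium and macrophages. It had 0 counts in all 3 saline samples and in AngII replicates 1 and 2, and 2 counts in AngII replicate 3. Olr1 (ENSMUSG00000030162.14; chromosome 6, 129485244 to 129507165, minus strand), or LOX-1, is the lectin-like receptor of oxidised LDL that is described as inducible by AngII in endothelial cells. It had 0, 4 and 1 counts after saline and 4, 4 and 8 counts after AngII. The sums were 5 and 16 counts, the groups overlapped at 4 counts, and Olr1 was below the filter and was not tested. Msr1 (ENSMUSG00000025044.16; chromosome 8, 39581685 to 39642673, minus strand), the class A receptor of macrophages, had 0, 2 and 0 counts after saline and 3, 0 and 2 after AngII. None of these 3 genes exceeded 8 counts in a sample, and no fold or interval is given for them.

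Scarf1 (ENSMUSG00000038188.17; chromosome 11, 75513540 to 75526582, plus strand), or SREC-I, is a class F receptor first described in human endothelial cells that binds acetylated LDL and dying cells. It had 45.3, 46.1 and 52.0 CPM after saline and 49.3, 47.2 and 51.3 CPM after AngII. The highest value of all 6 was saline replicate 3, and the AngII values lay within the saline range. Means were 47.8 ± 3.68 and 49.3 ± 2.04 CPM (SD, n = 3), with a log2 fold change of 0.04.

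Cd68 (ENSMUSG00000018774.13; chromosome 11, 69664213 to 69666153, minus strand), a heavily glycosylated protein of the lysosome membrane related to the LAMP proteins, is the usual histological marker of macrophages. It had 268, 271 and 272 CPM after saline and 274, 276 and 261 CPM after AngII. The AngII samples lay on both sides of the saline samples, and the means were 270.5 ± 2.05 and 270.3 ± 8.48 CPM (SD, n = 3). The log2 fold change was -0.0013, and it lay between -0.02 and 0.02 under the alternatives, above 0 with no filter beyond 1 count and without saline replicate 3 or AngII replicate 3.

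**Figure D2:**
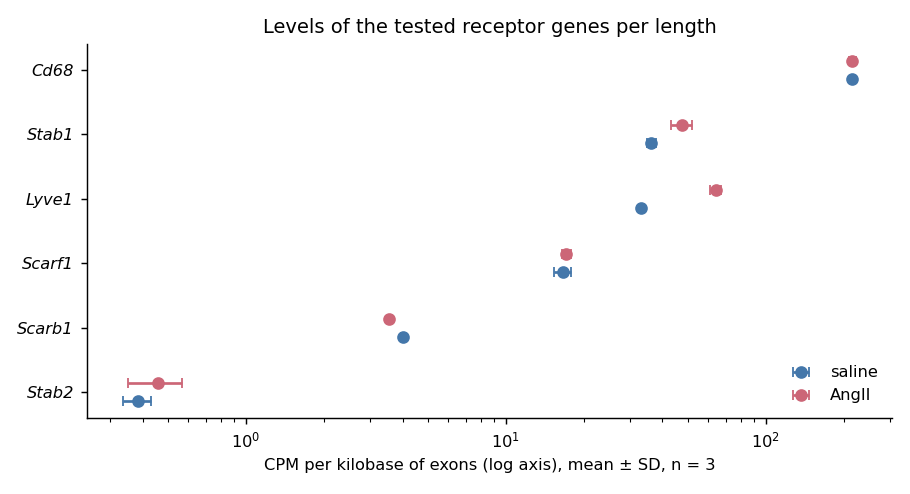
CPM per kilobase of merged exons (horizontal axis, log scale) of the 6 tested genes, mean ± SD of 3 samples, after saline (blue) and AngII (red). Cd68 is at 215 in both groups, and Lyve1 lies below Stab1 after saline and above it after AngII.

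Levels were compared between genes per kilobase of merged exons, since the transcripts differ in length from 1257 bases for Cd68 to 10288 for Stab1. After saline, Cd68 was the highest at 215 ± 1.63 CPM per kilobase, followed by Stab1 (36.3 ± 1.5), Lyve1 (33.2 ± 0.478), Scarf1 (16.6 ± 1.28), Scarb1 (4.02 ± 0.0713) and Stab2 (0.385 ± 0.0479), all as SD with n = 3. Neighbours in this order did not overlap between samples. On this scale Cd68 stood at percentile 98.7 of the 11800 tested genes with a length, Stab1 at 89.5, Lyve1 at 88.4, Scarf1 at 74.5, Scarb1 at 35.6 and Stab2 at 7.73.

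After AngII, Lyve1 (64.2 ± 3.33 CPM per kilobase, percentile 94.8) stood above Stab1 (47.5 ± 4.45, percentile 92.2), again without overlap, and the other 4 kept their places. The level of Lyve1 per kilobase was 0.903, 0.881 and 0.959 of that of Stab1 in saline replicates 1 to 3 and 1.25, 1.42 and 1.39 of it in AngII replicates 1 to 3. That order depends on the length used. Per kilobase of coding sequence Lyve1 was above Stab1 in both groups (101 against 48.4 CPM per kilobase after saline, 196 against 63.4 after AngII), and Scarb1 (19.5) was level with Scarf1 (19.4) after saline. Between the stabilins, Stab1 was 95.0 ± 8.55 times as high as Stab2 per kilobase after saline and 106 ± 17.0 times after AngII (SD, n = 3), within the spread of the replicates.

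Stab1 and Stab2 share exonic bases with a gene on the opposite strand. Stab1 overlaps Nt5dc2 over 112 bases, and Nt5dc2 had 19.5 ± 1.09 CPM after saline and 23.7 ± 1.34 CPM after AngII (SD, n = 3). Stab2 overlaps the antisense gene Gm16268 over 141 bases, which was not analysed here. The libraries kept strand, but whether the counting used it was not given in the sources used here. Of the 60 member values as deposited, 58 were exactly whole (no tolerance) and 2 had a fraction.

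Because Lyve1, Cd68, Mrc1 and Msr1 also mark macrophages or lymphatic vessels, markers of these cells were read in the same libraries. The defining genes of leukocytes and macrophages were at the limit of detection: Ptprc (CD45), Adgre1 (F4/80) and Itgam (CD11b) had 0 to 3 counts in every sample and Csf1r, the receptor of macrophage growth factor, 0 or 1. Above it, though low, were Lyz2, with 48 to 79 counts, and Cd14, the lipopolysaccharide coreceptor, with 16 to 27 counts per sample. Above it in some samples were Cx3cr1 (15, 3 and 7 counts after saline, 5, 4 and 3 after AngII) and Aif1 (1, 4 and 1 after saline, 0 in every AngII sample). Of the 22 macrophage markers 15 were listed, and 13 of the 15 had a mean below 1 CPM. Their summed level was 278 to 288 CPM after saline and 338 to 358 after AngII, nearly all of it Mertk, a receptor of dying cells that endothelium also expresses. Without Mertk the sum was 4.26 to 4.86 CPM after saline and 4.40 to 5.17 CPM after AngII. The part of these genes in the values of Lyve1 and Cd68 was not tested. Mertk had a log2 fold change of 0.31 (edgeR adjusted p = 1.9e-07) and Lyz2, a lysozyme, one of 0.40 (adjusted p = 0.023), a call that was lost in DESeq2 (adjusted p = 0.10) and without any of 3 samples (saline replicate 1 or 2, or AngII replicate 2; 0.053 to 0.082).

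Prox1, the transcription factor that defines lymphatic endothelium, had 0 to 3 counts in every sample, and the lymphatic genes Ccl21a and Mmrn1 had a mean below 0.05 CPM in both groups. Of the 6 lymphatic markers tested, 5 rose and 1 fell, with a median log2 fold change of 0.43. Those that rose were Nrp2, Flt4, Pdpn, Itga9 and Sox18, none of which is restricted to lymphatic vessels. The count of those that rose was 4 in DESeq2 and without AngII replicate 3. With at least 5 CPM required in 3 samples, 4 rose and 0 fell. Nrp2, a coreceptor of VEGF-C, went from 340 ± 5.63 to 468 ± 18.7 CPM (edgeR adjusted p = 1.2e-09), Flt4, the VEGF-C receptor, from 121 ± 3.64 to 141 ± 10.7 CPM (adjusted p = 4.2e-04), and Pdpn, a membrane mucin, from 4.89 ± 0.155 to 7.28 ± 0.428 CPM (adjusted p = 7.6e-05; n = 3 each). Reln, a secreted matrix protein of lymphatic vessels, fell by 1.59 on the log2 scale from a low level (1.07 ± 0.182 CPM). The summed level of the 9 listed lymphatic markers was 475 to 491 CPM after saline and 605 to 667 CPM after AngII, and its part in the Lyve1 values was not tested. In such bulk samples a different number of cells of a type and a different amount of RNA per cell cannot be told apart.

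Of 10 sinusoidal endothelial markers beside the members, 6 had a mean below 1 CPM, Fcgr2b and Clec4g among them, and 4 were tested. Plvap, which forms the diaphragms of endothelial openings, rose by 0.30, and Oit3, a secreted protein of liver sinusoids, fell by 0.41. Dnase1l3 and Gpr182 were low (1.45 ± 0.0148 and 1.35 ± 0.234 CPM after saline) and not called. Pecam1 (1846 ± 19.3 CPM after saline, 1919 ± 93.4 after AngII) and Cdh5 (1195 ± 30.4 and 1384 ± 72.6) showed that vascular endothelial genes were abundant in both groups (SD, n = 3). All 13 listed genes of that list were tested, 4 rose and 7 fell, with a median of -0.08. Cdh5 rose by 0.21 (edgeR adjusted p = 1.1e-04) and Robo4, an endothelial guidance receptor, fell by 0.64. Of 8 smooth muscle markers 4 were tested, 1 rose and 3 fell (median log2 fold change -1.34). Smtn rose by 0.32, while Mylk fell by 0.33, Myh11 (named with its values in view) fell by 2.35 and Des fell by 3.31 on the log2 scale, the last pair from low levels (0.958 ± 0.357 and 1.59 ± 0.260 CPM after saline). Acta2, Tagln and Cnn1 had means below 0.3 CPM. Of 8 listed fibroblast markers 4 were tested: Col3a1 and Pdgfra rose by 1.27 and 0.66, Fap fell by 0.97 and Pdgfrb was not called. Col3a1, Pdgfra and Fap were low after saline (3.43 ± 0.388, 3.50 ± 0.317 and 2.62 ± 0.621 CPM). Col1a1, Col1a2, Dcn and Lum had means below 0.3 CPM in both groups. The summed levels, which follow the genes with the highest CPM, were 152 to 153 after saline against 157 to 162 CPM after AngII for the smooth muscle markers, 13.7 to 15.8 against 19.2 to 22.5 CPM for the fibroblast markers, 4.57 to 5.29 against 2.31 to 2.90 CPM for 7 mesothelial and epithelial markers, and at most 0.235 CPM for 2 adipocyte markers. The part of these cells in the member values was not tested.

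**Figure D3:**
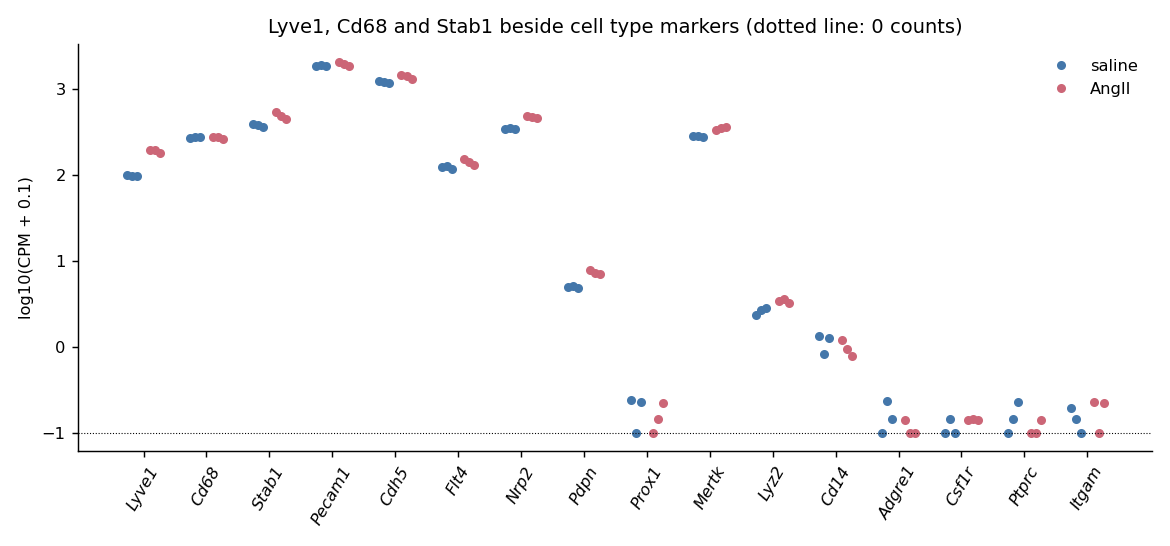
Log10 of CPM plus 0.1 (vertical axis) of Lyve1, Cd68 and Stab1 and of 13 marker genes in the 3 saline samples (blue) and the 3 AngII samples (red), with a dotted line at 0 counts. Prox1, Adgre1, Csf1r, Ptprc and Itgam lie at or near that line with 0 to 3 counts.

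The genes whose values over the 6 samples were most like those of Lyve1, by the root mean square difference of log2 CPM centred on the saline mean among 10078 genes of at least 5 CPM, were Ptgds (0.0466), Dusp6 (0.0507), Gbp9 (0.0516), Adamts1 (0.0652) and Sncaip (0.0669). Ptgds encodes a prostaglandin D synthase, Dusp6 a phosphatase of ERK and Adamts1 a matrix protease. Their levels ran from 15.8 ± 0.587 to 31.1 ± 1.6 CPM for Ptgds and from 229 ± 5.46 to 429 ± 5.05 CPM for Gbp9 (SD, n = 3). Ranked by Pearson correlation instead, 0 of the 5 were among the first 5. The gene most like Scarb1 by the same measure was Scp2 (0.0112), which encodes a sterol carrier protein, followed by Arpc4 (0.0114), Cyld (0.0141), Srsf4 (0.0142) and Mgrn1 (0.0145). This measure mainly picks genes with a like log2 fold change, the contrast already known when the members were chosen. Those values were 0.91 to 1.01 for the genes near Lyve1 and -0.19 to -0.17 for those near Scarb1. Nothing is read from these names about a shared function.

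Among 26 other receptors of the scavenger and mannose receptor families, 22 were listed and 14 tested, of which 2 rose, 3 fell and 9 were not called (median log2 fold change -0.16). The 2 that rose were scarce: Megf10, a receptor of dying cells, went from 0.288 ± 0.0619 to 1.09 ± 0.477 CPM and Mrc2, the collagen receptor next of kin to Mrc1, from 0.245 ± 0.137 to 0.862 ± 0.218 CPM. The 3 that fell were abundant. Scarb2, the lysosomal relative of Scarb1 and Cd36, went from 230 ± 4.53 to 164 ± 4.34 CPM (n = 3; edgeR adjusted p = 2.8e-10), Lamp1 fell by 0.32, and Lrp1, named after its values were seen, fell by 0.46 on the log2 scale. Lamp2, like Lamp1 a lysosomal membrane protein related to Cd68, had a log2 fold change of -0.06 (edgeR adjusted p = 0.10) and was called only with scaling by library totals (adjusted p = 0.046).

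Of 17 genes that make, bind or degrade hyaluronan, the ligand of Lyve1 and the stabilins, 11 were tested, 2 rose, 4 fell and 5 were not called (median -0.07). Cd44, the main other hyaluronan receptor, had 385 ± 3.79 CPM after saline and 377 ± 15.4 CPM after AngII (SD, n = 3; log2 fold change -0.03, edgeR adjusted p = 0.47). The hyaluronan synthase gene Has2 had 0 to 2 counts in every sample. Has3, a further synthase gene named after its values were seen, was low but tested. It went from 0.623 ± 0.197 to 0.982 ± 0.278 CPM (log2 fold change 0.66) and was not called (edgeR adjusted p = 0.077). Hyal1, the lysosomal hyaluronidase, went from 21.9 ± 0.627 to 11.6 ± 1.14 CPM (adjusted p = 5.1e-09), and Ugdh, which makes a sugar precursor of hyaluronan, from 213 ± 4.61 to 128 ± 0.922 CPM (adjusted p = 9.1e-13). Hmmr, a hyaluronan-binding protein that also serves the mitotic spindle, rose by 0.34, and Ugp2, which makes UDP-glucose, by 0.18.

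**Figure D4:**
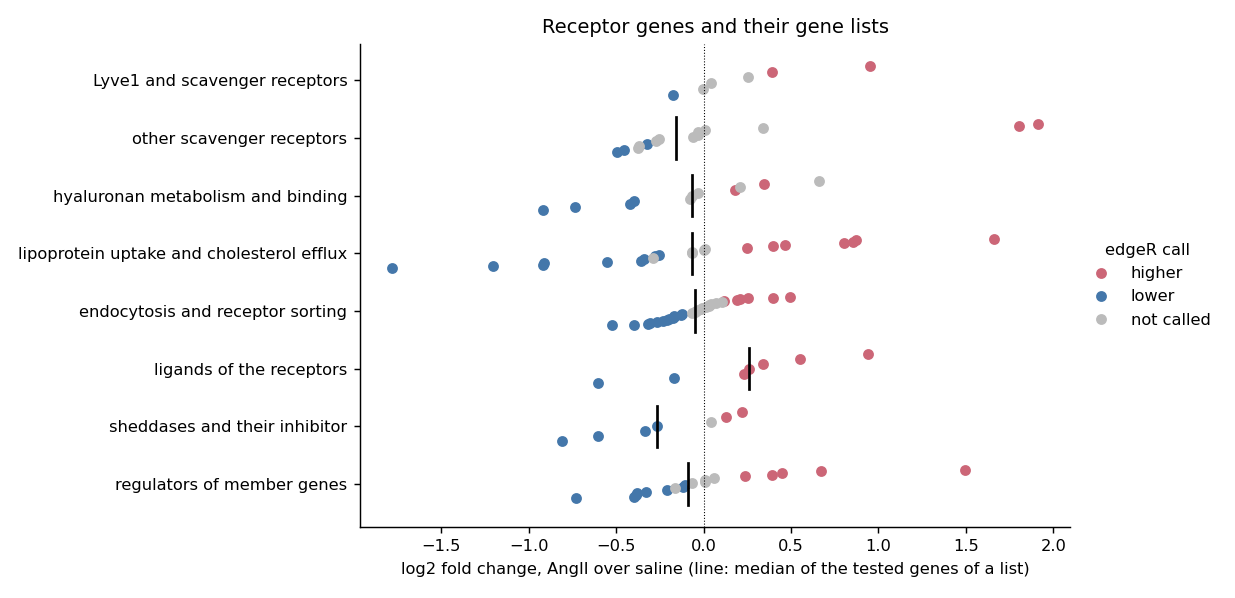
Log2 fold change of AngII over saline (horizontal axis) for the 6 tested members (top row) and for the tested genes of 7 gene lists, coloured by edgeR's call, with the median of each list as a line. The members run from -0.18 for Scarb1 to 0.95 for Lyve1, and each list holds genes called in both directions.

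Around Scarb1, Cd36 and Olr1, 28 genes of lipoprotein uptake and cholesterol efflux were considered and 21 tested, of which 7 rose, 9 fell and 5 were not called (median -0.07). Abca1, the exporter of cholesterol to lipid-poor apolipoprotein, went from 45.3 ± 2.33 to 19.7 ± 0.645 CPM (edgeR adjusted p = 2.6e-12) and Acvrl1, a BMP receptor that also binds LDL in endothelium, from 87.2 ± 2.25 to 46.1 ± 0.653 CPM (adjusted p = 5.2e-13; n = 3 each). Lrp8, a receptor of apolipoprotein E and reelin, rose by 0.80 and Gpihbp1, the capillary anchor of lipoprotein lipase, by 1.66. Pdzk1, the adaptor that holds SR-BI at the membrane in liver, had a mean below 0.2 CPM in both groups.

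All 32 genes of endocytosis and receptor sorting were tested, 6 rose, 13 fell and 13 were not called (median -0.05). Eea1 and Rab5a, of early endosomes, rose by 0.40 and 0.26, and Cltb, a clathrin light chain, and Cav2, of caveolae, fell by 0.52 and 0.30 on the log2 scale. Gulp1, the adaptor that binds the tails of the stabilins, had 58.5 ± 3.04 CPM after saline and 59.9 ± 1.04 CPM after AngII (log2 fold change 0.03, edgeR adjusted p = 0.52; n = 3, named after its values were seen).

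Of 14 reported ligands of the receptors, 7 were tested, 5 rose and 2 fell (median 0.26). Calr, calreticulin, a ligand of Scarf1 on dying cells and a chaperone, went from 324 ± 5.69 to 621 ± 45.6 CPM (edgeR adjusted p = 1.7e-12), and Vegfa rose by 0.55. Thbs1, the thrombospondin that binds Cd36, was picked with its values in view and went from 1540 ± 32.9 to 1951 ± 68.7 CPM (adjusted p = 1.1e-07; n = 3 each), in cells with almost no Cd36 counts. Pdgfb, a growth factor that binds Lyve1, fell by 0.17, and Col18a1 by 0.60, a call lost in DESeq2 and without saline replicate 2 or AngII replicate 1 (adjusted p = 0.051 to 0.053), which left 1 gene lower in the list.

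Of 7 genes of membrane proteases that release receptor ectodomains, their partners and inhibitor, 2 rose, 4 fell and 1 was not called (median -0.27). Adam17, reported to cleave LYVE1 from the surface of human cells, rose by 0.22 and Adam10 by 0.13. Mmp14, a further protease of the list named after its values were seen, fell by 0.34 (edgeR adjusted p = 1.6e-07). Timp3, the inhibitor of Adam17, went from 330 ± 7.09 to 188 ± 8.14 CPM (n = 3, edgeR adjusted p = 9.6e-13). Rhbdf2, a partner of Adam17, fell by 0.60 on the log2 scale. Of 24 transcription factors of member genes or their cell types, 18 were tested, 5 rose, 8 fell and 5 were not called (median -0.09). Nr2f2, the COUP-TFII factor of venous and lymphatic endothelium, rose by 0.45 (adjusted p = 2.5e-08) and Srebf2, of sterol regulation, by 0.24. Klf2, a factor induced by flow, went from 86.0 ± 0.989 to 52.0 ± 1.98 CPM (adjusted p = 1.3e-11) and Tal1, of blood and endothelial lineages, fell by 0.39. The lists and the members were chosen with earlier results of these samples known, and no list was tested as a set.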

How the data were processed

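The authors deposited 1 table of expected counts (estimated counts, not scaled to library size) for 17067 gene symbols in 6 samples, made with HISAT2 among the tools and mm10 as the build named, per the submitters' processing notes. Of its values 83% are exactly whole (no tolerance). Its quantifier, annotation, strand setting and filters are not given in the sources used here. Columns were assigned to samples by title, and values were rounded to whole numbers.

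The groups were fitted in edgeR 4.0.16 (R 4.3.3) with TMM scaling, filterByExpr (counts of 10, total of 15) and the quasi-likelihood test. P-values were adjusted by Benjamini-Hochberg over all 12277 tested genes, at a threshold of 0.05. The procedure was run on simulated independent counts with dispersions estimated from these samples. That check was on the fitted fold changes, so it cannot show how the calls behave where samples are dependent. The p-values reflect the spread between these samples alone, and that spread may be technical. Lengths, coordinates and overlaps came from GENCODE M21 (GRCm38), which may differ from the authors' annotation, and promoter sequences from RefSeq.

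Members and lists were chosen with earlier results of these data known, so members carry no p-value. Named were every member, up to 2 genes that rose and 2 that fell per list (lowest p), defining markers, and the genes most like Lyve1 and Scarb1 (log2 values with a prior count of 2). Tried instead in edgeR were median-of-ratios size factors, unscaled library totals, no filter beyond 1 count and a floor of 5 CPM in 3 samples. Also tried in edgeR were the replicate number as a block and leaving out each sample. Other alternatives were DESeq2 1.42.0, voom (limma 3.58.1), coding length and Pearson correlation.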

Additional observations from a re-analysis of the deposited data

How the results depend on the processing

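The log2 fold changes of the 6 tested members moved by less than the spread between replicates in all 77 values computed under the alternatives. Leaving out 1 of 3 samples can hardly move a group mean by more than that spread, so nothing about stability is read from those values. The log2 fold changes lay between 0.92 and 0.99 for Lyve1, 0.31 and 0.45 for Stab1, 0.07 and 0.43 for Stab2, -0.19 and -0.17 for Scarb1, 0.00 and 0.11 for Scarf1 and -0.02 and 0.02 for Cd68. With at least 5 CPM required in 3 samples Stab2 was not tested. The count of called members was 2 higher and 1 lower throughout, except that without AngII replicate 3 it was 3 higher.

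Over all genes 7072 were called, between 6024 (DESeq2) and 7323 (no filter beyond 1 count), and 6334 to 7007 with 1 sample left out. With the replicate number as a block 7204 were called. The labels state no pairing by replicate number. Same-numbered samples correlated in their deviations from the group means at 0.14, 0.03 and -0.08 over 10083 genes, and not every sample correlated best with its own number. Such correlations cannot settle whether samples were handled in pairs.

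Of 390 list counts under the alternatives, 21 moved by over 1.5 times, all of them counts of at most 3 genes, and of 719 values of named list genes 9 crossed the threshold and 0 reversed. Per coding length, 2 of 6 genes kept their place in the saline order of levels. At this depth the 4 members below the filter cannot be compared between groups.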
